A study of Cephalotaxus fortunei with 9 samples.

Results

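In Cephalotaxus fortunei, 37051 transcripts were quantified in 3 organs (leaf, root, stem), and 414 (1.12%) of them kept a similar level in all 9 libraries and are described here as candidate reference transcripts. They were chosen from the deposited TPM values: at least 50 TPM in every library, below 300 TPM in at least 1 library, and a ratio of the highest to the lowest of the 9 values under 2. TPM, the unit of the deposited abundance column, is a read number divided by the effective length of the transcript and scaled to 1000000 per library. The level limits alone were met by 1084 transcripts, of which the 414 are 38.2%. Because measured values chose these transcripts, their evenness on TPM is their definition and is given as a description with no test.

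Reference transcripts are the internal standard of quantitative PCR and of comparisons between organs: a target is expressed relative to transcripts whose level is taken to be constant. In plants, genes for actin, tubulin, ubiquitin, translation elongation factor and glyceraldehyde-3-phosphate dehydrogenase are commonly used for this purpose, and their stability is known to vary with species and organ. Constancy can only be stated relative to a scaling of the libraries. A TPM-type scale assumes that the total is equivalent in all organs, whereas the trimmed mean of M values (TMM) assumes that most transcripts do not differ between libraries. The TMM assumption was not tested. After TMM scaling, 69.5% of the transcripts tested differed among the organs (edgeR F test, adjusted p under 0.05).

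Cephalotaxus fortunei is a conifer known for cephalotaxine-type alkaloids, and the series was made for work on the enzymes that form these and the homoerythrina alkaloids. Leaf, root and stem were each represented by 3 poly(A)-selected, strand-specific libraries from total RNA; the labels give no age, treatment, cultivar or individual plant. P-values thus rest on the variation among these libraries alone, part of which could be technical. The transcripts carry running numbers, no gene names or sequences were used here, and the labelled organs were not checked against marker genes.

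Depth was lowest in root, with 7117807 to 8093638 estimated reads per library, followed by leaf with 12809484 to 14606814 and stem with 18417327 to 19652495. The first 2 root libraries agreed more closely than independent sampling noise would make them, for a reason that was not tested. Their chi-square per degree of freedom was 0.528, compared with 14.6 to 29.5 for the other pairs of libraries of an organ. Among the 414 transcripts the largest TPM difference between these 2 root libraries was 1.09-fold. They were counted as 1 sample in means, SDs and fits, which leaves 2 root samples. Root replicate 3 stood apart: the 414 transcripts had a median TPM of 93.0 there and of 105 to 116 in the other 8 libraries.

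The 414 transcripts were moderately abundant. Their median TPM over the 9 libraries ranged from 54.8 to 443, with a median of 108; 186 lay between 50 and 100 TPM, 159 between 100 and 200, 53 between 200 and 300, and 16 above. They held 5.33% to 5.94% of TPM in 8 libraries and 4.80% in root replicate 3. The most abundant, transcripts_3108 (1172 bases), stood at 414, 443 and 461 TPM in leaf, 413, 410 and 265 TPM in root and 517, 508 and 469 TPM in stem. Its root replicate 3 value was the lowest, and all 3 stem values lay above those of leaf and root without overlap. The least abundant by median, transcripts_6665 (3847 bases), stood at 74.2, 81.3 and 88.2 TPM in leaf, 53.7, 53.9 and 54.8 TPM in root and 52.0, 59.4 and 51.5 TPM in stem, so that leaf was above both other organs without overlap although the highest value was within 2-fold of the lowest. The second most abundant, transcripts_7120 (1695 bases), and the second least abundant, transcripts_26426 (2287 bases), had ratios of 1.51 and 1.45 on TPM.

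Counting error was small for nearly all of them. In every library 397 of the 414 had at least 100 estimated reads and 285 had at least 1000. The lowest number was 21 reads for transcripts_19037 (222 bases) in root replicate 3, with an exact 95% Poisson interval of 13.0 to 32.1 that covers counting error only.

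Evenness within 2-fold left room for differences between organs. The ratio of highest to lowest TPM had a median of 1.62, and 119 transcripts were under 1.5 and 13 under 1.25. The ratio of the organ means had a median of 1.38 and reached 1.84. Within an organ the median ratio was 1.10 in leaf, 1.09 in stem and 1.28 between the 2 root samples. In 244 of the 414 the organ means lay further apart on TPM than any of the samples within an organ. The lowest of the 9 TPM values was found in root replicate 3 for 197 of the 414, more often than in any other library, and the highest was in leaf for 161, in root for 156 and in stem for 97.

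The most even transcript on TPM was transcripts_16111 (1814 bases). It stood at 85.6, 83.6 and 91.7 TPM in leaf, 96.4, 96.1 and 94.8 TPM in root and 93.7, 93.0 and 87.0 TPM in stem, a ratio of 1.15. The organ means were 87.0 ± 4.22 TPM in leaf (SD, n = 3), 95.5 ± 1.03 in root (SD, n = 2) and 91.2 ± 3.70 in stem (SD, n = 3). Root was thus slightly above both leaf and stem without overlap, and stem overlapped with leaf. Close behind it were transcripts_16863 (492 bases; ratio 1.15), with 195, 191 and 169 TPM in leaf, 169, 169 and 179 in root and 184, 180 and 192 in stem, and transcripts_27033 (1492 bases; ratio 1.16), with 160, 160 and 165 TPM in leaf, 168, 167 and 162 in root and 184, 167 and 171 in stem. In transcripts_16863 leaf overlapped with both other organs, and in transcripts_27033 with root. The next in order were transcripts_2997 (2130 bases) at a ratio of 1.20 and transcripts_3407 (1564 bases) at 1.21.

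The same transcripts were then read on the TMM scale, as NumReads divided by the library total times the TMM factor, in CPM (counts per 1000000 counts). The TMM factors of stem, 0.743 to 0.781, lay below those of leaf, 1.10 to 1.12, and root, 1.15 to 1.21. On this scale stem was raised against the other organs. The geometric mean of the 414 transcripts was 124 ± 1.88 TPM in leaf (SD, n = 3), 114 ± 17.4 in root (SD, n = 2) and 115 ± 1.79 in stem (SD, n = 3). In TMM-scaled CPM the leaf value was 149 ± 1.55, the root value 155 ± 9.98 and the stem value 201 ± 6.53 (SD, same n). Stem was 0.927 of leaf on TPM, 0.927 of leaf with NumReads over library totals and 1.35 times leaf after TMM scaling. All 3 stem libraries lay above all leaf and root libraries on the TMM scale; on TPM all 3 stem libraries lay below the leaf libraries and between the root samples.

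**Figure D1:**
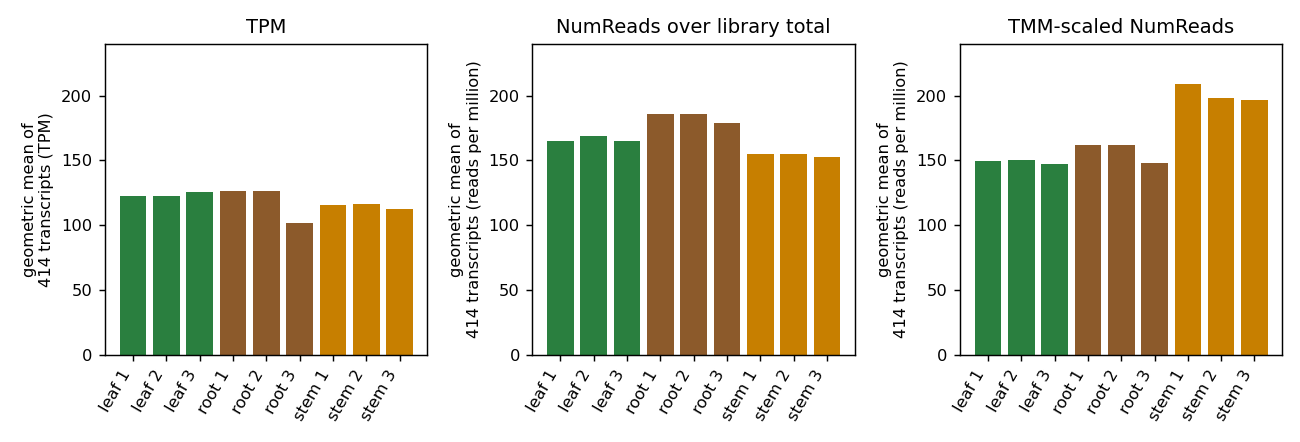
Geometric mean of the 414 transcripts in each of the 9 libraries on 3 scales (left, TPM; centre, CPM from library totals; right, CPM after TMM scaling; bars, single libraries coloured by organ). On TPM the lowest bar is root replicate 3 at 102 and on the TMM scale the 3 stem bars, at 197 to 209, stand above the other 6, at 148 to 162.

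On the TMM scale 307 of the 414 transcripts (74.2%) still had a highest-to-lowest ratio under 2, and 107 did not. With the same level limits on TPM and the ratio taken on TMM-scaled reads, the list held 390 transcripts (36% of the 1084), of which the 307 are 78.7%. The median ratio of the 414 was 1.73 on the TMM scale. It was larger than on TPM for 259 transcripts and smaller for 155. A ratio under 1.5 on both scales was found for 47 transcripts, whereas 119 met that limit on TPM and 118 of the 414 on the TMM scale. Across the 414 transcripts the ratios on the 2 scales had a Pearson correlation of 0.261 and a Spearman correlation of 0.255, given as a description because both come from the same reads and the rule limits the TPM ratios to values under 2, which narrows the range.

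**Figure D2:**
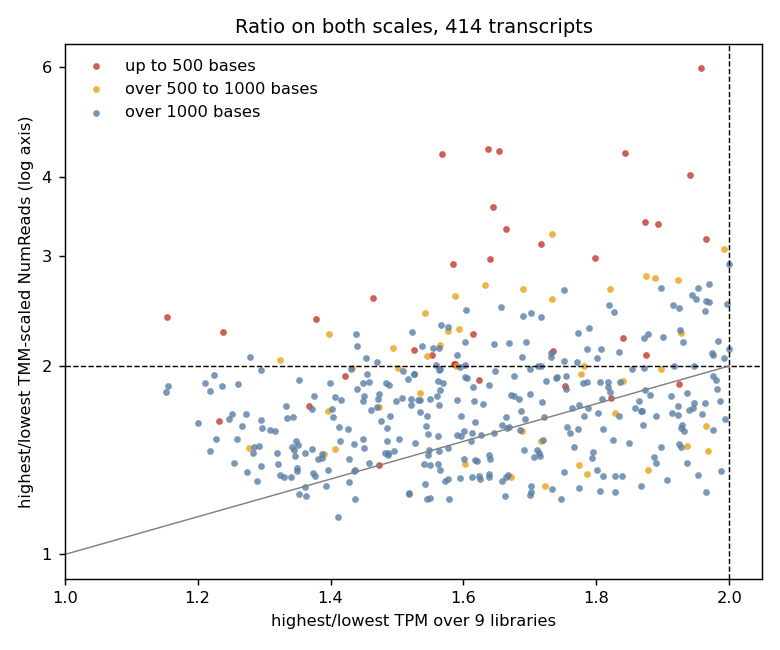
Ratio of the highest to the lowest of 9 libraries on TPM (horizontal) and on TMM-scaled NumReads (vertical, log axis) for the 414 transcripts, coloured by length; dashed lines mark a ratio of 2 and the grey line marks equal ratios. The 107 points above the horizontal dashed line exceed 2 on the TMM scale, and the points above 4 are transcripts of up to 500 bases.

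Each of the 5 transcripts most even on TPM had its highest TMM-scaled values in stem. For transcripts_16111 these were 157, 141 and 162 CPM in leaf, 203, 203 and 221 in root and 257, 238 and 236 in stem, a ratio of 1.82. For transcripts_27033 they were 291, 265 and 289 in leaf, 268, 268 and 295 in root and 492, 413 and 448 in stem, a ratio of 1.86. In both, the stem libraries did not overlap with the other organs. The short transcripts_16863 moved most, from 1.15 on TPM to 2.39, with 112, 101 and 99.2 CPM in leaf, 66.8, 66.8 and 77.3 in root and 160, 147 and 158 in stem. The ratios on the TMM scale were 1.62 for transcripts_2997 and 1.88 for transcripts_3407.

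The transcripts most even after TMM scaling showed the converse. Among the 414, transcripts_12298 (2910 bases) had the smallest TMM ratio, 1.15, with 226, 236 and 225 CPM in leaf, 253, 254 and 221 in root and 253, 250 and 242 in stem. On TPM it stood at 87.1, 91.3 and 92.0 in leaf, 86.2, 86.4 and 67.0 in root and 66.8, 69.6 and 65.2 in stem, a ratio of 1.41. Its stem values were thus the lowest on TPM except for root replicate 3, which lay among them. The next were transcripts_29307 (1214 bases; 1.22 on TMM and 1.75 on TPM), transcripts_15554 (1452 bases; 1.23 and 1.44), transcripts_36560 (1537 bases; 1.23 and 1.58) and transcripts_24069 (2083 bases; 1.23 and 1.54). In all 4, each stem library was below each leaf library on TPM. Of these, transcripts_29307 had whole read numbers in every library.

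A compromise between the scales was sought by ranking the transcripts by the larger of their 2 ratios. First was transcripts_33554 (3294 bases), with 95.4, 98.4 and 104 TPM in leaf, 89.6, 89.6 and 82.1 TPM in root and 82.8, 81.5 and 80.3 TPM in stem, a ratio of 1.29. Its TMM-scaled values were 360, 368 and 365 CPM in leaf, 353, 353 and 369.5 in root and 463, 434 and 442 in stem, a ratio of 1.31. Leaf was the highest organ on TPM and stem on the TMM scale. Next were transcripts_33122 (7045 bases; 1.33 on both), transcripts_19669 (3472 bases; 1.32 on TPM and 1.34 on TMM), transcripts_7768 (3173 bases; 1.34 and 1.33) and transcripts_28664 (4805 bases; 1.35 and 1.25). All 5 were over 3000 bases long, and their effective lengths changed by 1.03-fold to 1.06-fold over the libraries. None of the 5 had whole read numbers in every library. In the edgeR F test over the 3 organs described below, their adjusted p-values were 0.0038 to 0.043. That fit used TMM scaling and the libraries of the ranking, so it describes differences among organs on the TMM scale only.

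**Figure D3:**
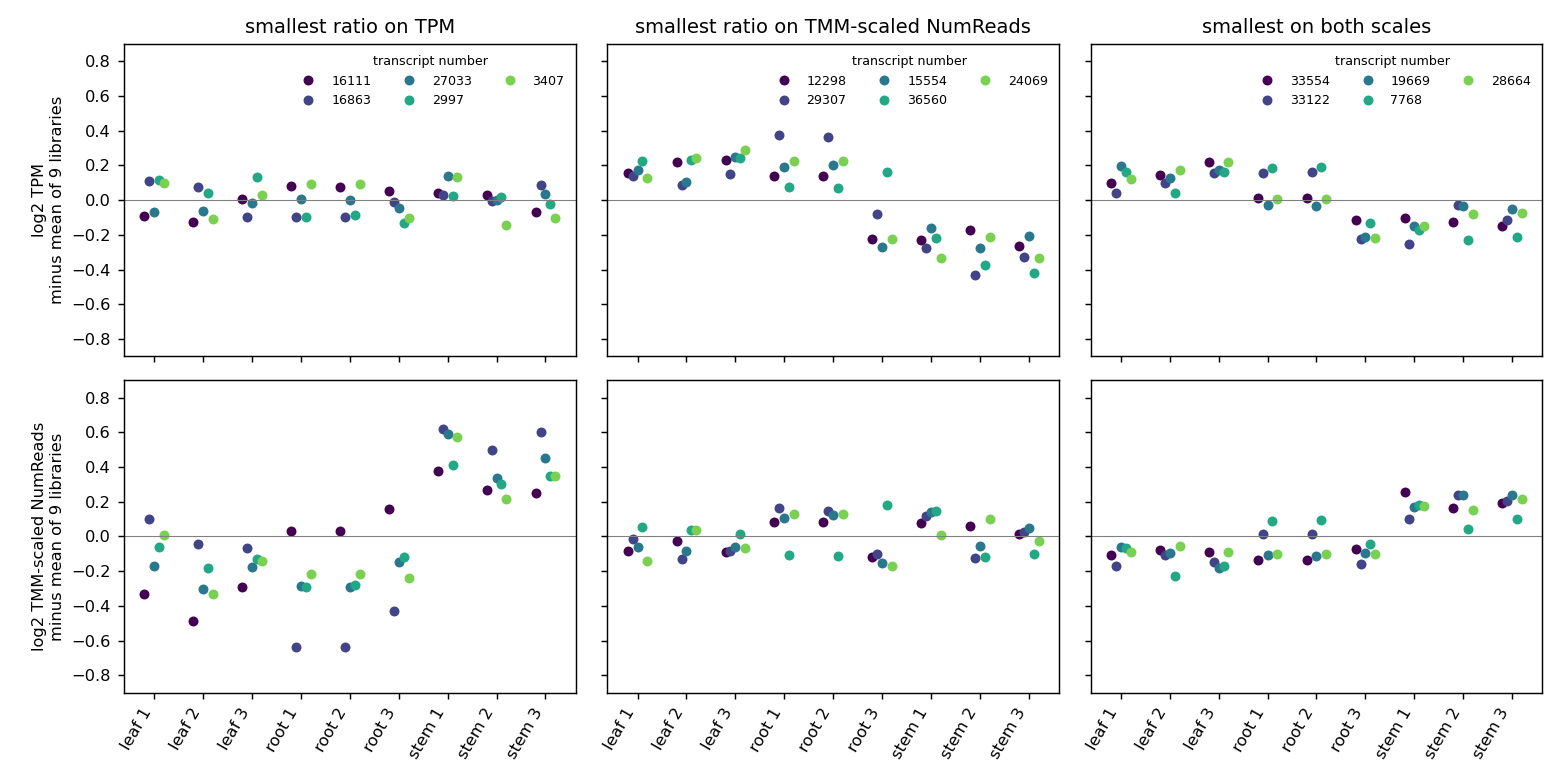
Log2 TPM (top) and log2 TMM-scaled NumReads (bottom), each minus the mean of the 9 libraries of that transcript, for the 5 transcripts with the smallest ratio on TPM, on the TMM scale and on both (columns; points are single libraries). The transcripts most even on TPM lie highest in stem on the TMM scale, and those most even on the TMM scale lie lower in stem than in leaf on TPM.

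Scaling by the transcripts themselves removes the library factor but not the choice between reads and TPM. When the NumReads of each library were divided by the geometric mean of the 414 transcripts, 368 of them had a ratio under 2, with a median of 1.54. The NumReads were not divided by effective length here. This scaling centres the 414 in every library by construction, so these values are a description only. The smallest spreads on this scale, singled out after their values were seen, belonged to transcripts_30212 (3888 bases), transcripts_33944 (1674 bases) and transcripts_33413 (1641 bases), with ratios of 1.07, 1.09 and 1.11. For transcripts_30212 the TPM values were 121, 118 and 131 in leaf, 114, 115 and 93.5 in root and 112, 113 and 112 in stem, a ratio of 1.40. Its lowest value was in root replicate 3, the library in which the 414 were lowest on TPM as a group. The organ with the highest mean was leaf for 31, root for 82 and stem for 301 of the 414 on the TMM scale, and leaf for 188, root for 120 and stem for 106 on TPM.

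The 414 transcripts were longer than the rest. Their median length was 1728 bases, compared with 1090 bases for the 670 transcripts that met the level limits with a ratio of 2 or more and 695 bases for all 37051. Of transcripts within the level limits, 17.4% of those of up to 500 bases were among the 414, 24.0% of those of 501 to 1000 bases, 39.9% of those of 1001 to 2000 bases, 58.4% of those of 2001 to 3000 bases and 59.6% of longer ones. On the TMM scale the corresponding shares were 12.4%, 20.8%, 39.7%, 55.7% and 57.8%. The share rose with length on both scales, and length was not part of the rule. Longer transcripts also receive more reads at a given TPM, and the part of counting error in this order was not tested.

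Effective length, the adjusted length by which Salmon divides the reads of a transcript, differed between libraries most in short transcripts. The median ratio of highest to lowest effective length over the 9 libraries was 2.07 for the 35 transcripts of up to 500 bases and 1.08 for the 65 of over 3000 bases. In these 35, root effective lengths were 0.565 of those in leaf at the median, the root TPM was 0.997 of the leaf TPM and the root TMM-scaled reads were 0.663 of those in leaf. In the 173 transcripts of over 2000 bases the medians were 1.00 for effective length, 0.912 for TPM and 1.08 for TMM-scaled reads. The short transcripts were thus even on TPM with unequal read numbers. The rule keeps TPM within 2-fold, so where effective lengths differ about 2-fold, unequal read numbers follow largely from the choice. A TMM ratio of 2 or more was found for 27 of the 35 (77.1%) and for 80 of the 379 longer members (21.1%). Of all 201 transcripts of up to 500 bases within the level limits, only 12.4% had a TMM ratio under 2. In the longer length classes 20.8% to 57.8% did. A ratio of 2 or more was thus common in short transcripts in general. Of the 14 members with a TMM ratio above 3, 12 were of up to 500 bases.

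The largest TMM ratio, 5.98, belonged to transcripts_13642 (244 bases). Its TPM values were 360, 315 and 254 in leaf, 226, 228 and 204 in root and 400, 320 and 356 in stem. Its TMM-scaled values were 30.2, 26.3 and 23.8 CPM in leaf, 9.58, 9.66 and 8.92 in root and 53.3, 39.7 and 42.7 in stem. The organs did not overlap on the TMM scale, with root lowest, and leaf and stem overlapped on TPM. The second largest, 4.44, belonged to transcripts_19037, whose TPM values lay between 73.9 and 121, with effective lengths that changed by 3.06-fold. The shortest member, transcripts_32889 (212 bases), had ratios of 1.96 on TPM and 3.19 on the TMM scale. At the other end, the longest, transcripts_15144 (8079 bases), had ratios of 1.79 and 1.72.

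**Figure D4:**
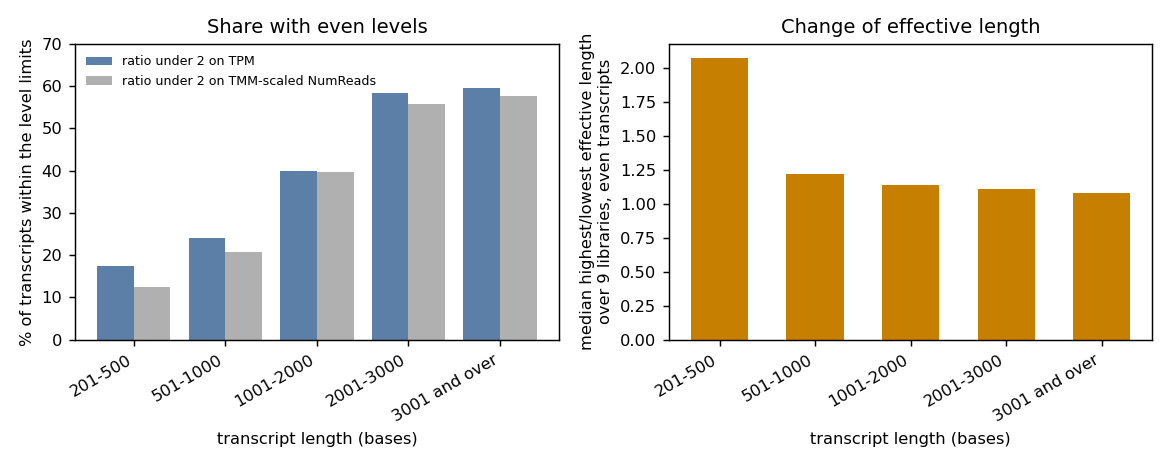
Left, share of the 1084 transcripts within the level limits that had a ratio under 2 on TPM or on TMM-scaled NumReads, by length; right, median ratio of the highest to the lowest effective length over 9 libraries for the 414 transcripts. The share rises from 17.4% to 59.6% on TPM, and the effective-length ratio falls from 2.07 to 1.08.

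Short transcripts also weighed differently on the TPM total of the organs. Transcripts of up to 500 bases held 33.5% to 36.6% of TPM in leaf and stem, 45.0% and 45.1% in the first 2 root libraries and 55.7% in the third, but 5.48% to 8.32% of reads in all 9 libraries. Their median effective length was 61.5 to 67.0 bases in root and 112 to 136 bases in leaf and stem. The 100 most abundant transcripts of each library held 35.5% to 36.9% of TPM in stem and 28.1% to 34.0% in leaf and root. The share of the 414 in TPM was lowest in root replicate 3, while their share of reads was 11.0% to 11.5% in root, 9.65% to 9.84% in leaf and 8.99% to 9.13% in stem. The part of these shares in the levels of the 414 was not tested.

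Reads divided among similar transcripts were common in the set. An estimated read number more than 0.001 from a whole number was found for 58.7% to 79.5% of the 414 per library, compared with 39.6% to 50.3% of all transcripts. The latter share counts as whole the 2606 to 13343 transcripts per library without reads, which lowers it. In every library whole numbers were found for 20 of the 414 (4.83%), for 36 of the 670 with a ratio of 2 or more (5.37%) and for 34.8% of all transcripts, which include those without reads. Of these 20, 14 also had a TMM ratio under 2, and 0 were under 1.5 on both scales. The smallest value of the larger of their 2 ratios was 1.54. The values of a transcript that shares reads with a near-identical copy are uncertain.

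Libraries left out of the rule gave a limited reading of how far the choice held. The rule was applied to 8 libraries and the ninth was then examined. It selected 416 to 435 transcripts when leaf, stem or root replicate 1 or 2 was left out, and 95.4% to 99.8% of these stayed under a ratio of 2 with the ninth library added. With root replicate 3 left out it selected 605, of which 454 stayed under 2. In root replicate 3 these 605 stood at a median of 0.753 of their median TPM in the other libraries, and 95.0% lay within 2-fold of it. The omission of root replicate 1 or 2 tests little, since its near-copy remained. When a leaf or stem library was left out, other libraries of that organ stayed in the rule. Those shares therefore mostly reflect the small spread within leaf and stem.

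Whole organs were held out in the same way. Of 653 transcripts even over root and stem, 86.5% had a leaf mean within 2-fold of their median in those organs; of 714 even over leaf and root, 81.1% had a stem mean within 2-fold. Of 1265 even over leaf and stem, 59.7% had a root mean within 2-fold, 457 were at 0.5 of the median or less and 53 at 2 or more. The share that carried over was lowest for root; these counts share libraries, and the difference was not tested.

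All 414 transcripts passed the filter on low counts and were part of an edgeR quasi-likelihood fit on 24564 transcripts with TMM scaling, in which a call required a Benjamini-Hochberg adjusted p under 0.05 and at least a 2-fold difference. The rule used the same libraries, so the counts describe the set and nothing is read from their size. Leaf against root called 7 of the 414, 6 higher in leaf (17.7% of all transcripts tested) and 1 higher in root (26.6%), beside 44.3% called in either direction. Stem against root called 42, beside 52% of all tested; all 42 were higher in stem (20.3% of all tested) and 0 higher in root (31.8%). Leaf against stem called 30, beside 29%; all 30 were higher in stem (14.4%) and 0 higher in leaf (14.5%). At an unadjusted p under 0.05 and 2-fold in edgeR both of these counts were also 0, as they were with DESeq2. In all, 59 were called in at least 1 comparison, and the matching share of all tested transcripts was not counted.

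The direction of these calls moved with the scaling. The median log2 fold change of the 414 was -0.06 for leaf over root, 0.36 for stem over root and -0.41 for leaf over stem with TMM, where the medians of all tested transcripts were -0.27, -0.46 and 0.02. With library totals alone the medians of the 414 were -0.15, -0.28 and 0.14, and those of all tested were -0.36, -1.09 and 0.57. Stem against root then called 24, beside 55.1% of all tested: 5 were higher in stem (13% of all tested) and 19 higher in root (42.1%). Leaf against stem called 0, beside 35.7% (0 also at an unadjusted p under 0.05 and 2-fold in edgeR, and 30 with DESeq2 and its own size factors).

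**Figure D5:**
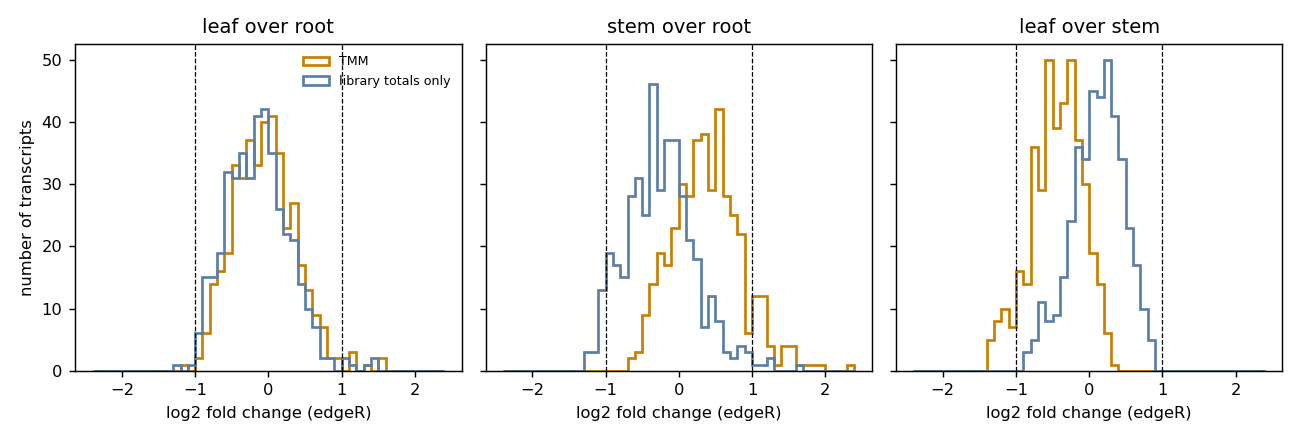
Distribution of the edgeR log2 fold change of the 414 transcripts for leaf over root, stem over root and leaf over stem, with TMM scaling and with library totals alone; dashed lines mark 2-fold. TMM moves the median of stem over root from -0.28 to 0.36 and that of leaf over stem from 0.14 to -0.41.

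Differences of any size among the organs, with those of 2-fold or more included, were common in the set. Without the fold limit, an adjusted p under 0.05 (edgeR) was reached by 330 of the 414 (79.7%) in the F test over the 3 organs, beside 69.5% of all transcripts tested. The 84 that did not reach it had a median ratio of 1.70 on TPM and 1.36 on the TMM scale, and 82 of them were under 2 on both scales.

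For leaf over root the largest were transcripts_13642, with a log2 fold change of 1.54, and transcripts_31604 (241 bases), with 1.51; for stem over root they were the same transcripts, with 2.30 and 1.92. With effective lengths as offsets, the leaf-over-root values were 0.46 and 0.26 and were not called, nor was stem over root for transcripts_31604. On TPM transcripts_31604 stood at 98.9, 78.4 and 63.1 in leaf, 63.7, 64.7 and 63.5 in root and 71.8, 63.4 and 80.0 in stem, with overlap of the organs. For leaf over stem the largest were transcripts_4345 (2949 bases), with -1.39, and transcripts_27242 (986 bases), with -1.38. On TPM transcripts_4345 stood at 70.1, 73.1 and 78.2 in leaf, 87.4, 87.9 and 72.5 in root and 140, 132 and 133 in stem, so stem was above the other organs on both scales. Of the 59 called transcripts, 19 were of up to 500 bases.

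The limit of 2 cut through a continuous series. Just inside it lay transcripts_11833 (5480 bases), transcripts_4345 and transcripts_34444 (2046 bases), at TPM ratios of 1.9997, 1.9992 and 1.9965. Just outside it lay transcripts_28665 (2352 bases), transcripts_32472 (2420 bases) and transcripts_29675 (470 bases), at 2.004, 2.006 and 2.007. The TMM ratios of the first 3 were 2.13, 2.91 and 2.51, and those of the latter 3 were 1.62, 2.45 and 2.31. Of the transcripts within the level limits, 83 were under 2 on the TMM scale and not on TPM, with TPM ratios of 2.25 at the median. The most even of these on the TMM scale were transcripts_11856 (277 bases), at 1.34 against 2.67 on TPM, and transcripts_8496 (287 bases), at 1.39 against 4.01 on TPM. Both had their highest TPM in root, where transcripts_8496 stood at 211, 212 and 194 TPM against 75.7 to 105 TPM in leaf and 52.8 to 60.2 TPM in stem.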

How the data were processed

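The submitters' processing notes name fastp 0.23.2 and Salmon 1.10.0, without the options or the transcript set. Each deposited table gives, per the file headers, a length, an effective length, a TPM and an estimated count (NumReads, not whole where reads are divided among transcripts) for 37051 transcripts. The level rule was applied to TPM in the 9 libraries. NumReads were scaled with TMM factors from edgeR 4.0.16 (R 4.3.3) computed on transcripts kept by its expression filter in the 9 libraries. For tests, NumReads were rounded, root replicates 1 and 2 averaged, and 8 samples fitted with the robust quasi-likelihood model, 1 mean per organ. Alternatives used DESeq2 1.42.0, limma 3.58.1 on log2(TPM + 1), other scalings and limits, a replicate block and omission of single libraries. The fit was checked on simulated counts in which few transcripts differed, all higher in leaf. That check cannot show whether the TMM assumption holds in these data. The members, tests and alternatives were chosen with earlier results of these data known. Named transcripts followed a rule: the 5 smallest ratios on TPM, on the TMM scale and on both; the 2 highest, lowest, longest and shortest members; the 2 largest TMM ratios; the 3 nearest the ratio limit on each side; the 2 most even non-members on the TMM scale; and the 2 largest called differences per comparison. Intervals cover counting error only.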

Additional observations from a re-analysis of the deposited data

How the results depend on the processing

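The number of even transcripts depended on the limits, by construction. A ratio limit of 1.5 gave 119 on TPM, 127 on the TMM scale and 47 on both (39.5% of the TPM list). A minimum of 20 TPM gave 980, 975 and 733, and a minimum of 100 TPM gave 152, 136 and 100 (65.8%). Means of the 3 organs in place of libraries gave 672, 591 and 503. The share of the TPM list that was also even after scaling was 83.6% with upper-quartile factors, 80.7% with library totals, 66.2% with TMM factors computed without a filter and, chosen after seeing the data, 88.9% with scaling by the geometric mean of the 414, which centres them by construction; for the other scalings the cause was not tested. With a library left out the TPM list held 416 to 605, the TMM list 381 to 502 and both 298 to 420 (69.4% to 77.2%); the share of 69.4% and the largest numbers came without root replicate 3. Members called for stem against root numbered 24 with library totals, those for leaf against stem 0 with library totals, and those for leaf against root 0 with effective-length offsets; at an unadjusted p under 0.05 and 2-fold in edgeR these counts of 0 were also 0. Under limma on log2(TPM + 1) the numbers were 0, 0 and 0, which the rule fixes: the 9 TPM values of a member lie within 2-fold, so a 2-fold difference cannot be reached and the counts say nothing about the calls. With a library left out the calls were 37 to 43, 25 to 32 and 7 to 10 for stem against root, leaf against stem and leaf against root, and the F test count was 297 to 336. Over the other settings the number of members that differed among organs ran from 242 (limma on log2(TPM + 1)) to 357 (DESeq2, likelihood-ratio test). The replicate block on the 9 libraries as deposited gave 41 members called between stem and root, 30 between leaf and stem, 7 between leaf and root and 354 by the F test, compared with 41, 30, 8 and 354 without the block. Deviations of same-numbered libraries correlated at -0.0271 to 0.0299, and the same number correlated best in 9 of 18 comparisons, so the numbers were not taken to pair the libraries. Root has 2 samples, which limits every statement on its spread.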
